A study of Mus musculus with 12 samples.

Results

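The genes described here encode the chains of collagens, and were taken from the deposited tables as the rows whose symbol is Col, a number, a and a second number. Of 55421 rows, 44 were such genes, and 23 of them had a value of at least 10 normalized reads in at least 3 of the 12 libraries. RNA was sequenced from B16F10 cells, a mouse melanoma line grown as a culture, in 4 groups of 3 libraries: Bub1KO after 8 Gy of radiation, vector control (VC) after 8 Gy, Bub1KO without irradiation and VC without irradiation. Bub1KO cells carry a CRISPR-Cas9 disruption of Bub1, which encodes a kinase of the mitotic checkpoint. The sources used here do not give the guide, the number of Bub1KO clones or the time between radiation and RNA extraction. Whether the 3 libraries of each group were grown as separate cultures is not labelled, and the p-values therefore cover only how far these libraries spread, which can be technical variation.

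Collagens are the fibrous proteins of the extracellular matrix. Each molecule is a triple helix of chains that are the products of the same gene or of partner genes, so a chain that lacks its partner may have no helix to enter. Fibrillar collagens (types I, II, III, V, XI, XXIV and XXVII) build the cables of connective tissue, while type IV chains form the sheet-like network of basement membranes. Fibril-associated collagens (types IX, XII, XIV, XVI and XX among them) decorate fibrils, type VII forms the fibrils that anchor the epidermis, type VI makes beaded filaments, and type X is a short-chain network of growth cartilage. Fibroblasts, osteoblasts and chondrocytes are the best known producers, and melanoma cells also make matrix of their own.

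The genes of type IV chains lie in pairs, head to head, and their promoters are shown because partner chains from 1 shared region differed in level here. RefSeq gives a window of 250 bases before to 50 bases after the start site (build GRCm38.p6) for 35 of the 44 genes, and for 18 of the 23 with a usable value. Capitals in the lines of sequence mark a CCAAT box (CCAAT), a GC box (GGGCGG) or a TATA box (TATAAA) on either strand. No such matches overlapped each other in these windows. The Col4a1 window lies at chr8:11312777-11313076 on the minus strand, and the Col4a2 window at chr8:11312555-11312854 on the plus strand. Their start sites are 21 bases apart and the windows share 78 bases. Col4a5 (chrX:141475169-141475468, plus strand) and Col4a6 (chrX:141474027-141474326, minus strand) start 1343 bases apart. The Col10a1 window (chr10:34389731-34390030, plus strand) is shown because Col10a1 separated the genotypes in both radiation conditions.
Col4a1: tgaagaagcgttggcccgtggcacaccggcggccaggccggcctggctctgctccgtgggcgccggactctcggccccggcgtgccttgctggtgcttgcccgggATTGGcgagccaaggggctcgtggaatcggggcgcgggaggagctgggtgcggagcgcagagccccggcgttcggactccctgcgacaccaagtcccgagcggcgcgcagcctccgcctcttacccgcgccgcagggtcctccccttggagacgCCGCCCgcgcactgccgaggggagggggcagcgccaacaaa
Col4a2: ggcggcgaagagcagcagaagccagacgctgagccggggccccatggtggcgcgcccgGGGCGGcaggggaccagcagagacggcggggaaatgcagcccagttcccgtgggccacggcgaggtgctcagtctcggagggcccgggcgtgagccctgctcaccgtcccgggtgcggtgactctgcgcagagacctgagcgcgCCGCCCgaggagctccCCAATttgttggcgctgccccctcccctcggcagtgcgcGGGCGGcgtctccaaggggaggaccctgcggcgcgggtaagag
Col4a5: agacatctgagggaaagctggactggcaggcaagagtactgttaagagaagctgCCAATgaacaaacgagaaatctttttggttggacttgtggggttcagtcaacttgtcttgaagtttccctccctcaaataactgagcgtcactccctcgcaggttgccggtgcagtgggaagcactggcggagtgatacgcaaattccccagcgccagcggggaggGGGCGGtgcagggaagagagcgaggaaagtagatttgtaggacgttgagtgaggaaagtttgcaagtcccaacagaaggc
Col4a6: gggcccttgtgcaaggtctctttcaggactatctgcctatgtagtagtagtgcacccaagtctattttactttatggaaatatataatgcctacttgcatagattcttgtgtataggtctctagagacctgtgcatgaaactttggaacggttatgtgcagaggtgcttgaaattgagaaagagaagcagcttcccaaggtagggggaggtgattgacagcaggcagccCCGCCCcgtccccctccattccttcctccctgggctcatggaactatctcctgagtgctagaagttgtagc
Col10a1: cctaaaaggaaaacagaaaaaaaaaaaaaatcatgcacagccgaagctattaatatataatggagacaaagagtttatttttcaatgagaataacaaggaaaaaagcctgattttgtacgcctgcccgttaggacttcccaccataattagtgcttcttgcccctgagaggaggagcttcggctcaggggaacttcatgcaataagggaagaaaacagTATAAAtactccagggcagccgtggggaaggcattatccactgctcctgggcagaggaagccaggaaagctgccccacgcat

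Among the 18 windows a GC box was found in 12 (66.7%, against 35.7% of 32851 mouse promoters of the same length). A CCAAT box was found in 8 (44.4%, against 37.4%), and a TATA box in 2 (11.1%, against 13.6%), Col10a1 being 1 of them. These are matches of letters within 1 window per gene, and no binding was measured.

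The libraries held 19380726 to 33087366 reads in genes. Bub1 itself had 886, 989 and 1120 normalized reads in irradiated Bub1KO against 1484, 1461 and 1507 in irradiated VC, and 1834, 1565 and 1588 in unirradiated Bub1KO against 2752, 3185 and 2859 in unirradiated VC. It was lower in Bub1KO without overlap in both conditions, with log2 differences of -0.58 (limma adjusted p = 0.0015) and -0.82 (limma adjusted p = 7.6e-05), and its transcript was still present in all 12 libraries. All 7 melanocyte markers were detected, with a summed value of 555547 to 578932 in irradiated Bub1KO and 430616 to 445913 in irradiated VC, and 542890 to 552089 in unirradiated Bub1KO and 386911 to 404327 in unirradiated VC. The part of this higher sum in the collagen differences was not tested. Of 9 fibroblast markers, Pdgfra alone reached the minimum. The summed fibroblast value was 39.4 to 49.4 in irradiated Bub1KO and 47.2 to 54.8 in irradiated VC, against 74.9 to 107 in unirradiated Bub1KO and 94.5 to 148 in unirradiated VC. Dpt and Twist2 were at 0 in all libraries, and Dcn and Thy1 averaged below 1 in every group. Fap averaged 3.79 in irradiated Bub1KO and 4.71 in irradiated VC, against 1.39 in unirradiated Bub1KO and 0 in unirradiated VC. Of 6 endothelial markers only Vwf reached the minimum, averaging 187 in irradiated Bub1KO and 191 in irradiated VC, against 15.9 in unirradiated Bub1KO and 12.4 in unirradiated VC, while Cdh5 and Kdr averaged below 1. Of 6 leukocyte markers only Cd68 did, averaging 216 in irradiated Bub1KO and 113 in irradiated VC, against 19.4 in unirradiated Bub1KO and 24.1 in unirradiated VC, while Ptprc averaged below 1 and Adgre1 was at 0. In RNA from whole cultures, fewer cells of a type and less RNA per cell cannot be told apart.

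Unirradiated Bub1KO replicate 1 was unlike its partners, with a chi-square per gene of 57.7 and 54.9 against them; the other pairs of libraries within a group gave 6.04 to 19.8. The gap between its GC-rich and GC-poor genes was -0.70 on the log2 scale, where its partners had 0.030 and 0.073, unirradiated VC had -0.36 to -0.13 and the irradiated libraries had 0.076 to 0.34. Collagen chain genes are rich in GC: the median was 57.7% over the 23 genes and 49.4% over all genes tested, and 16 of the 23 lay above the upper quartile of 54.1%. The replicate had the lowest value of its group for 14 of the 23 chains, as did irradiated VC replicate 3. Counts of chains past the threshold are given with and without unirradiated Bub1KO replicate 1. The log2 rises of the chains after radiation in Bub1KO are given only with that library.

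The collagen RNA of these cells was led by type V and type IV chains (the plot of values by library). Per kilobase of exon, Col5a1 averaged 149 normalized reads per kb in irradiated Bub1KO and 213 in irradiated VC, the highest of all chains there, and 97.7 in unirradiated Bub1KO and 112 in unirradiated VC. Col5a3, another type V chain, had 157 in irradiated Bub1KO and 176 in irradiated VC, and 100.4 in unirradiated Bub1KO and 89.1 in unirradiated VC, so its mean was above that of Col5a1 in both Bub1KO groups and below it in both VC groups. Col4a5 (65.8 to 140 per kb over the 4 group means), Col4a1 (65.1 to 110) and Col15a1 (62.2 to 98.5), a multiplexin of basement membrane zones, followed. These levels of neighbours in the order overlapped between groups and were not tested against each other. The highest chain, Col5a1, stood at the 65.4th percentile of all genes tested in irradiated VC, and the lowest that could be used, Col11a1, at the 0.374th.

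**Figure D1:**
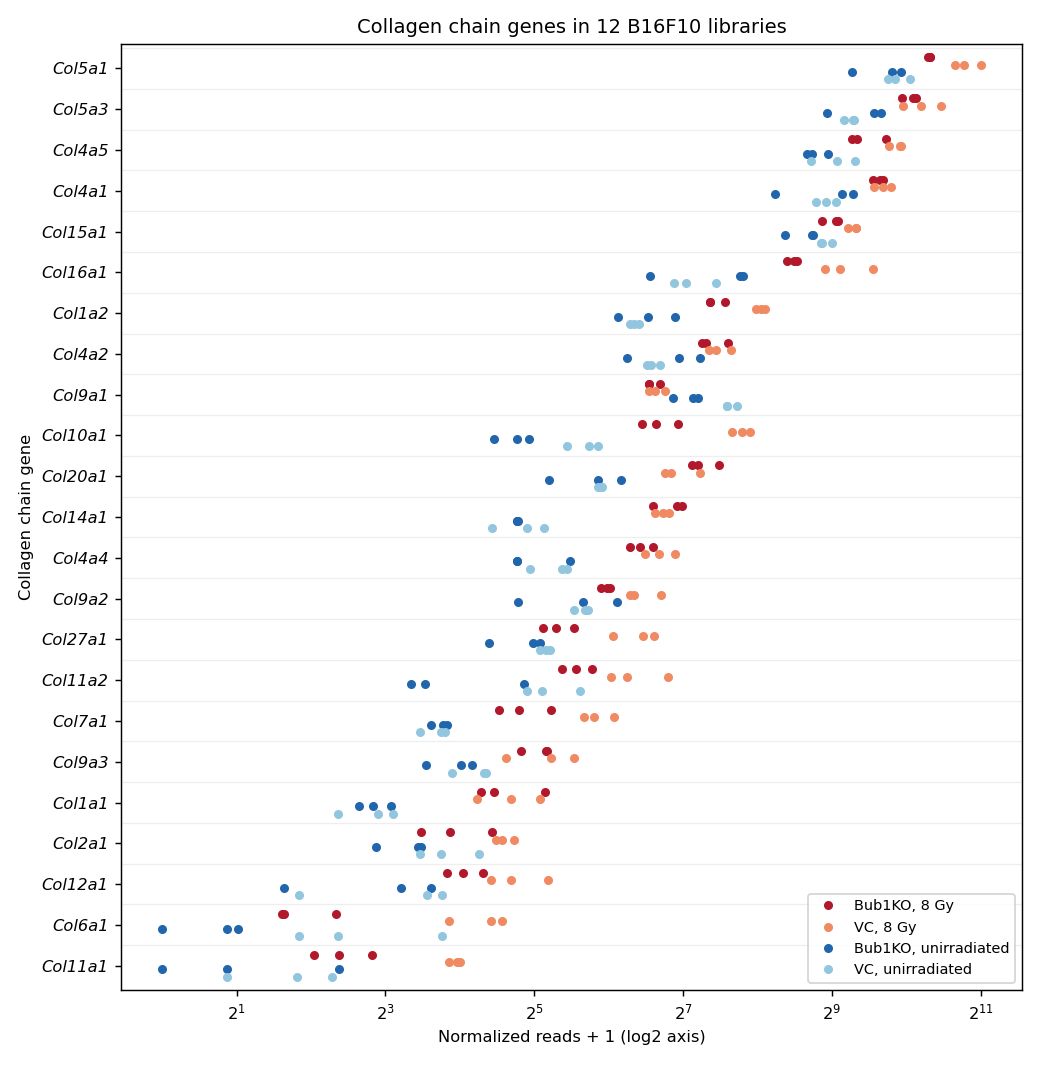
Normalized reads plus 1 (log2 horizontal axis) of the 23 collagen chain genes that reached the minimum value, with 1 point per library and the 4 groups in 4 colours. Col5a1 at the top reaches 1252 to 1280 in irradiated Bub1KO and 1619 to 2063 in irradiated VC, and Col9a1 is the chain whose irradiated libraries lie below the unirradiated ones.

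Summed over all 44 chains, the level was 850 ± 8.39 normalized reads per kb in irradiated Bub1KO and 1096 ± 111 in irradiated VC (SD, n = 3 each), and 525 ± 112 in unirradiated Bub1KO and 572 ± 33.6 in unirradiated VC. The irradiated groups did not overlap with each other, while the unirradiated ones did. These sums were not tested. Fibrillar chains made up 39.5%, 39.8%, 40.3% and 38.1% of the sum in irradiated Bub1KO, irradiated VC, unirradiated Bub1KO and unirradiated VC, and the type IV network 28.8%, 26.3%, 29.1% and 28.3%. Multiplexins made up less of it after irradiation, with 9.56% in irradiated Bub1KO and 9.18% in irradiated VC, against 12.01% in unirradiated Bub1KO and 13.2% in unirradiated VC. The short-chain network, which is nearly all Col10a1, made up 3.94% in irradiated Bub1KO against 6.59% in irradiated VC, and 1.69% in unirradiated Bub1KO against 2.93% in unirradiated VC.

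**Figure D2:**
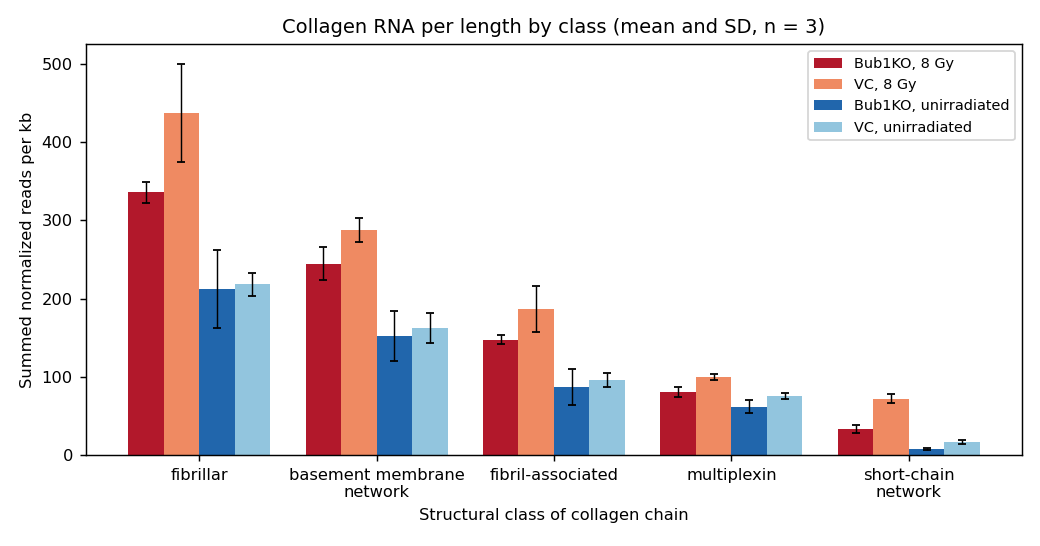
Summed normalized reads per kb of exon for 5 structural classes of collagen chain, as the mean of 3 libraries with the SD, in the 4 groups. Fibrillar chains are the largest class in every group, at 336 in irradiated Bub1KO and 438 in irradiated VC, and the short-chain network is lower in Bub1KO than in VC in both conditions.

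Partner chains of type I and of the most widespread type IV molecule were far from equal. Type I collagen is normally built from Col1a1 and Col1a2 chains, yet the ratio of Col1a1 to Col1a2 per kb was 0.214 to 0.346 in irradiated Bub1KO, 0.123 to 0.245 in irradiated VC, 0.109 to 0.167 in unirradiated Bub1KO and 0.0976 to 0.186 in unirradiated VC. With the longest transcript in place of the merged exons as the length, the mean ratio was 0.128 in irradiated Bub1KO, 0.0866 in irradiated VC, 0.0627 in unirradiated Bub1KO and 0.0682 in unirradiated VC, so Col1a2 exceeded Col1a1 by either length. Col4a1 and Col4a2, the partners of the most widespread type IV molecule, stood at a ratio of 3.43 to 4.83 in irradiated Bub1KO, 3.97 to 4.23 in irradiated VC, 3.32 to 4.50 in unirradiated Bub1KO and 3.83 to 5.22 in unirradiated VC, although their start sites are 21 bases apart. The 2 genes overlap by 22 bases of exon on opposite strands.

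Col5a2, which joins Col5a1 in the commonest type V molecule, had at most 2.15 normalized reads in any library. Col6a2 and Col6a3, the partners of Col6a1, had at most 1.03 and 3.10. Col4a6, the neighbour and partner of Col4a5, had at most 4.04, and Col4a3, which shares a molecule with Col4a4 and Col4a5, had at most 9.98. The annotated start of Col4a3 lies 72 bases from that of Col4a4, and Col4a4 averaged 85.7 ± 9.41 in irradiated Bub1KO and 103 ± 14.6 in irradiated VC, against 32.1 ± 10.0 in unirradiated Bub1KO and 37.4 ± 6.78 in unirradiated VC (SD, n = 3 each). Of the 21 chains below the minimum, Col13a1 had no read in any library. Just outside the limit were Col3a1 (0 to 14.9 normalized reads), a fibrillar chain, and Col18a1 (0 to 12.9), the source of endostatin, with 2 libraries each at 10 or more, and Col23a1 (1.29 to 11.6), with 1 such library. Just inside were Col11a1 with 3 and Col6a1 with 4. The other low chains, Col17a1, Col8a1, Col28a1, Col8a2, Col19a1, Col25a1, Col26a1, Col22a1, Col6a6, Col24a1, Col6a4 and Col6a5, stayed between 0 and 9.95.

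In irradiated cells, Bub1KO had less RNA than VC for 6 of the 23 chains and more for none (limma, Benjamini-Hochberg adjusted p under 0.05 over all 14721 genes tested). The share lower among all genes tested was 6.93% and the share higher 7.37%, 14.3% together. The 6 were Col6a1, Col10a1, Col27a1, Col7a1, Col1a2 and Col5a1, which belong to 6 different types and 4 structural classes. The log2 difference was negative for 21 of the 23 chains, with a median of -0.48 (all genes tested: -0.0055). Col6a1 and Col11a1 reached the minimum in VC libraries only, so that they entered the test through their high group. Without them 5 of 21 were lower and 0 higher.

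Col10a1, the type X chain (chr10:34389981-34397085, plus strand), had 121, 98.1 and 86.1 normalized reads in irradiated Bub1KO, against 201, 237 and 220 in irradiated VC. Every Bub1KO library was below every VC library. The log2 difference was -1.11 (SE 0.18, limma adjusted p = 0.0012), which corresponds to 0.463-fold, and the call was kept in all 22 alternatives. Col10a1 shares 18 bases of exon with Nt5dc1 on the opposite strand, whose values lay between 235 and 362, and the strand setting of the counting is not given. Col7a1 (chr9:108953586-108984875, plus strand), the anchoring fibril chain, had 26.8, 36.4 and 22.1 in irradiated Bub1KO, against 54.8, 49.9 and 66.5 in irradiated VC. The groups did not overlap, and the log2 difference was -0.999 (SE 0.23, limma adjusted p = 0.012). Without irradiated VC replicate 3 the adjusted p was 0.059.

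Among fibrillar chains, Col27a1 (chr4:63214004-63334991, plus strand), known from cartilage, had 38.2, 45.5 and 33.6 in irradiated Bub1KO, against 96.7, 87.1 and 65.4 in irradiated VC. All 3 Bub1KO libraries were lower, by -1.06 on the log2 scale (SE 0.22, limma adjusted p = 0.0062), and no alternative ended the call. Col1a2 (chr6:4504814-4541544, plus strand), the second chain of type I collagen, had 164, 188 and 164 in irradiated Bub1KO, against 273, 252 and 264 in irradiated VC. These groups were far apart relative to their spread, with a log2 difference of -0.61 (SE 0.16, limma adjusted p = 0.022). Col5a1 (chr2:27886425-28039514, plus strand), the most abundant chain, had 1280, 1271 and 1252 in irradiated Bub1KO, against 1755, 2063 and 1619 in irradiated VC. Its log2 difference was -0.51 (SE 0.14, limma adjusted p = 0.032). The call for Col1a2 was lost without irradiated Bub1KO replicate 1 or 3 or without any of the irradiated VC replicates (adjusted p up to 0.079), and that for Col5a1 without any of the irradiated Bub1KO replicates or irradiated VC replicate 1 or 2 (up to 0.147).

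Col6a1 (chr10:76708792-76726168, minus strand), a chain of the beaded filaments, was near the limit of detection: 2.06, 4.04 and 2.10 in irradiated Bub1KO, against 13.5, 22.7 and 20.4 in irradiated VC. These rest on 8 reads in Bub1KO and 63 in VC, a ratio of 0.150 (exact 95% interval 0.0621 to 0.314, which covers counting error only), and the limma adjusted p was 0.0080. Of the chains that missed the threshold, Col16a1 had 336, 370 and 359 in irradiated Bub1KO, against 554, 752 and 479 in irradiated VC (limma adjusted p = 0.093). Col4a5 had 616, 646 and 847 in irradiated Bub1KO, against 875, 978 and 961 in irradiated VC (limma adjusted p = 0.070). Both chains had groups that did not overlap, and both were past the threshold in the fit on the 6 irradiated libraries, by DESeq2 and after removal of GC trends. Col15a1 was lower in Bub1KO without overlap in both conditions and missed the threshold in both. Its log2 difference was -0.29 in irradiated cells (limma adjusted p = 0.089) and -0.29 in unirradiated cells (0.098). The authors' deposited table, whose log2 values run as VC over Bub1KO, called 7 of the 23 chains in irradiated cells, all with less RNA in Bub1KO: Col16a1 (0.74), Col4a5 (0.42), Col10a1 (1.11), Col27a1 (1.10), Col7a1 (0.998), Col1a2 (0.61) and Col5a1 (0.52). It gives no adjusted p for Col6a1. The share of all genes called by the authors' fit is not given here, so the count of 7 cannot be judged against it. The chains with differences nearest 0 were Col4a1 (-0.06, limma adjusted p = 0.88), Col1a1 (-0.03, 0.96), Col9a1 (-0.05, 0.81), Col9a3 (-0.07, 0.88) and Col4a2 (-0.09, 0.81). The positive ones were Col14a1 (0.12, limma adjusted p = 0.72) and Col20a1 (0.33, 0.33).

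**Figure D3:**
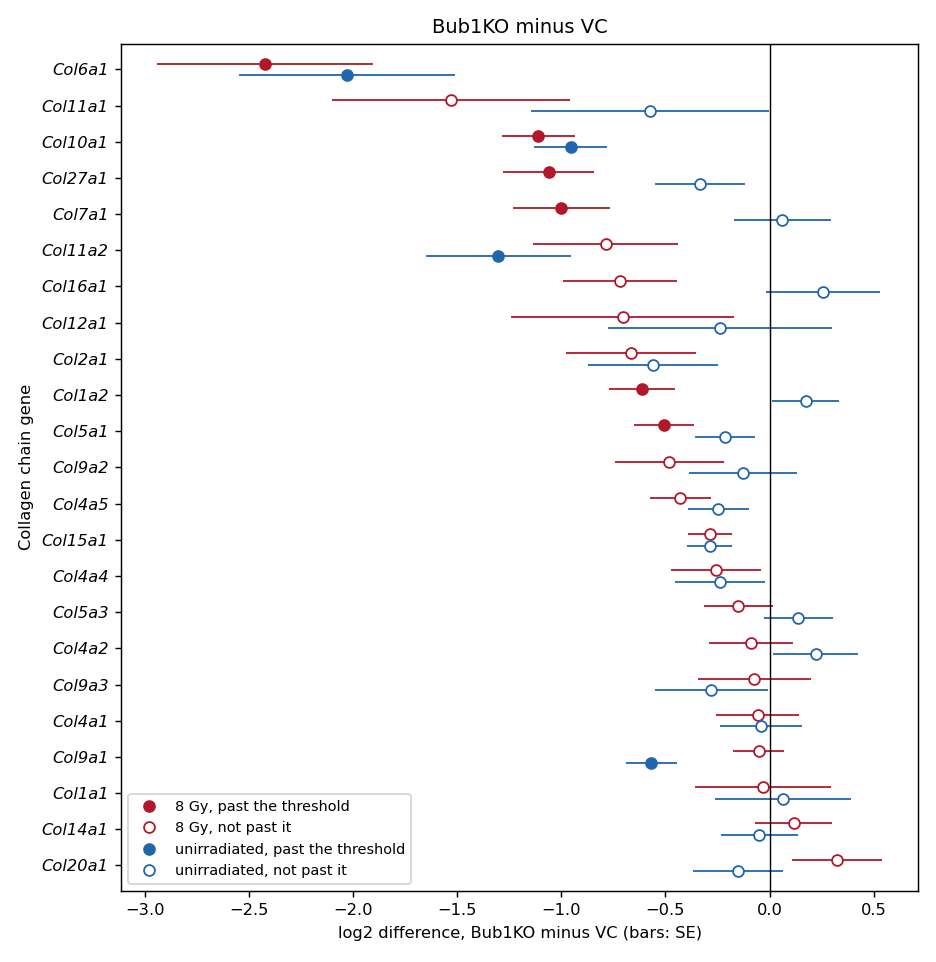
Log2 difference, Bub1KO minus VC, of the 23 collagen chain genes after 8 Gy (red) and without irradiation (blue), with bars for the SE of the limma fit. Filled points are past the threshold: 6 chains after 8 Gy and 4 without irradiation, all left of 0.

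Without irradiation, 4 of the 23 chains were lower in Bub1KO than in VC and none higher (limma adjusted p under 0.05), where 5.38% of all genes tested were lower and 6.64% higher, 12% together. They were Col6a1, Col11a2, Col10a1 and Col9a1, of which Col10a1 and Col6a1 were also lower in irradiated cells. Without Col6a1, which reached the minimum in VC only, 3 of 22 were lower. The median log2 difference was -0.24 over the chains and -0.0084 over all genes tested, and 17 of the 23 were negative.

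Col10a1 had 29.5, 26.3 and 21.1 in unirradiated Bub1KO, against 52.2, 42.6 and 56.7 in unirradiated VC. The groups did not overlap, and the log2 difference of -0.95 (SE 0.18, limma adjusted p = 0.0028) was close to that in irradiated cells. Col9a1 (chr1:24177610-24252684, plus strand), a fibril-associated chain of cartilage, had 116, 139 and 146 in unirradiated Bub1KO, against 211, 191 and 192 in unirradiated VC. All 3 Bub1KO libraries lay below the VC ones, by -0.57 on the log2 scale (SE 0.12, limma adjusted p = 0.0090). In the fit on the 6 unirradiated libraries the adjusted p was 0.061. Col11a2 (chr17:34039437-34066685, plus strand), a minor fibrillar chain, had 9.15, 28.0 and 10.5 in unirradiated Bub1KO, against 48.1, 33.5 and 29.0 in unirradiated VC. Replicate 2 of Bub1KO came close to the lowest VC library, and the log2 difference was -1.30 (SE 0.35, limma adjusted p = 0.026). This call was lost in 5 alternatives (adjusted p up to 0.12): the 6 libraries alone, edgeR, and without unirradiated Bub1KO replicate 3, unirradiated VC replicate 1 or unirradiated VC replicate 2. Col11a2 in irradiated cells had 53.7, 40.4 and 46.2 in Bub1KO, against 74.7, 110 and 64.4 in VC (limma adjusted p = 0.15).

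Col6a1 had 1.02, 0.823 and 0 in unirradiated Bub1KO, against 4.14, 2.58 and 12.6 in unirradiated VC. With 2 reads in Bub1KO and 17 in VC the ratio was 0.104, with an exact 95% interval of 0.0116 to 0.437 for counting error only (limma adjusted p = 0.021). The call was lost without unirradiated VC replicate 3, which held most of the VC reads, without unirradiated Bub1KO replicate 3, with a pseudocount of 5 and in the fit on the 6 libraries (adjusted p up to 0.114). The other genotype differences without irradiation depended on unirradiated Bub1KO replicate 1. Left out, that library gave 8 chains past the threshold, the same 4 lower and Col16a1, Col4a2, Col5a3 and Col4a1 higher, while 3624 of all genes tested were past it instead of 1769. With GC trends removed as well, the count was 6, with 5 lower (Col15a1 added) and Col16a1 higher. Col4a1 shows the size of this: it had 300, 622 and 560 in unirradiated Bub1KO, against 532, 485 and 441 in unirradiated VC, a log2 difference of -0.04 (limma adjusted p = 0.93) that was 0.28 (0.042) without the replicate. In irradiated cells that omission, through the estimate of the spread alone, gave 11 chains lower instead of 6. The authors' deposited table called 3 chains in unirradiated cells, Col9a1 (VC over Bub1KO 0.57), Col10a1 (0.98) and Col11a2 (1.19), all lower in Bub1KO. The share of all genes called by that fit is again not given.

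**Figure D4:**
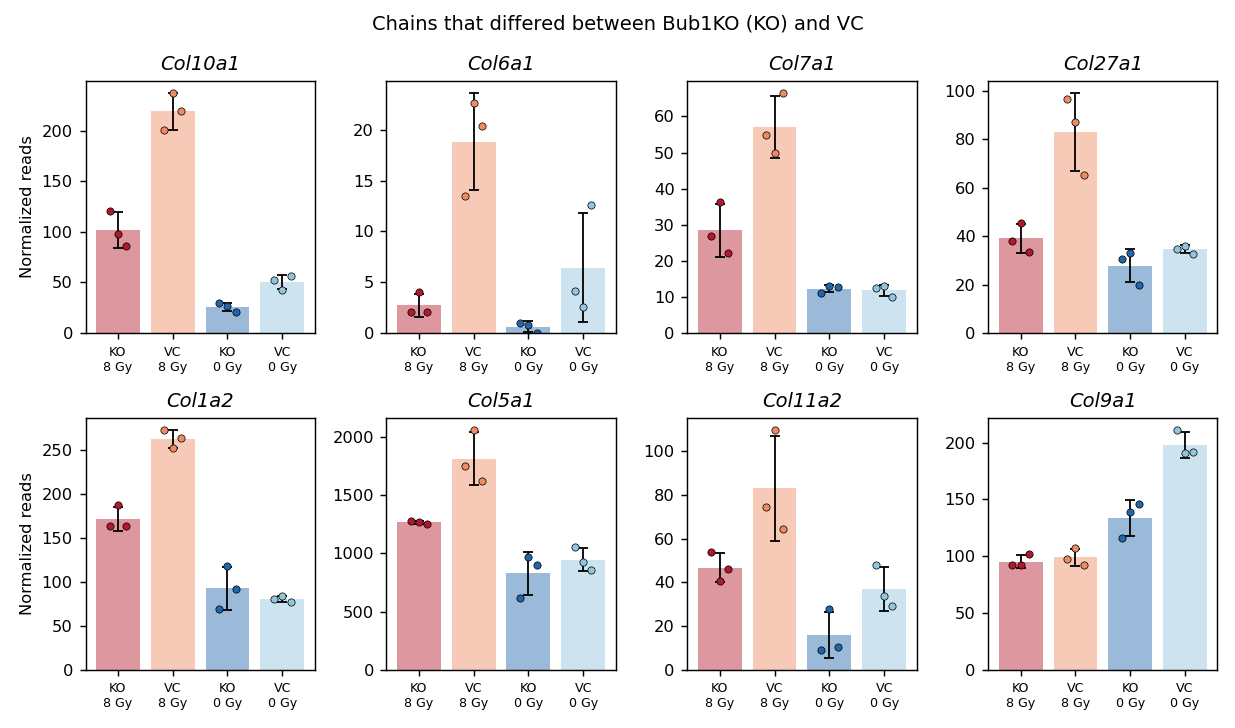
Normalized reads of the 8 chains past the threshold between genotypes in at least 1 radiation condition: bars are means, error bars the SD and points the 3 libraries of a group (KO stands for Bub1KO, 0 Gy for no irradiation). Col10a1 separates the genotypes in both conditions, at 86.1 to 121 against 201 to 237 after 8 Gy and 21.1 to 29.5 against 42.6 to 56.7 without. Col11a2 and, on few reads, Col6a1 also have no overlap between genotypes in either condition.

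Irradiation was followed by more collagen RNA in both genotypes. In Bub1KO, 16 of the 23 chains rose after 8 Gy and Col9a1 fell (limma adjusted p under 0.05), where 25.4% of all genes tested rose and 23.9% fell, 49.4% together. In VC, 21 rose and Col9a1 fell, where 27.6% of all genes rose and 25.8% fell, 53.4% together. The median log2 difference in Bub1KO was 1.10 over the chains and 0.028 over all genes tested, and in VC it was 1.14 over the chains and 0.017 over all genes tested. All 16 that rose in Bub1KO also rose in VC. Without unirradiated Bub1KO replicate 1, 16 chains rose in Bub1KO as well, with Col12a1 in place of Col4a2. Col1a1 and Col11a1 reached the minimum only in irradiated libraries. Without Col1a1 15 of 22 chains rose in Bub1KO, and without both 19 of 21 rose in VC. Because the GC balance of the libraries moved with irradiation, the fit was repeated with GC trends removed: 15 chains rose in Bub1KO and 17 in VC, and Col9a1 fell in both. The part of GC balance in the remaining differences was not tested.

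The largest log2 rises in VC that rest on more than a few reads were Col7a1 (2.18, SE 0.23, 4.52-fold), Col10a1 (2.10, SE 0.18, 4.29-fold), Col16a1 (2.07, SE 0.27, 4.21-fold) and Col14a1 (1.90, SE 0.19, 3.73-fold), with limma adjusted p from 5.2e-07 (Col10a1) to 2.9e-05 (Col16a1). Col14a1, a chain that binds the surface of fibrils, had 96.0, 120 and 126 normalized reads in irradiated Bub1KO against 26.4, 26.3 and 26.3 in unirradiated Bub1KO, and 111, 98.0 and 105 in irradiated VC against 34.0, 20.6 and 29.0 in unirradiated VC. Its irradiated values were nearly the same in both genotypes, and its log2 rise in Bub1KO was 2.06 (SE 0.19, limma adjusted p = 1.0e-06). Col16a1, a fibril-associated chain of skin, had 93.5, 216 and 222 in unirradiated Bub1KO and 172, 130 and 117 in unirradiated VC. Its log2 rise was 1.10 (SE 0.27, limma adjusted p = 0.0042) in Bub1KO and 2.07 in VC.

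Col1a1, the main chain of type I collagen, had 18.6, 34.4 and 21.0 in irradiated Bub1KO against 6.10, 7.404 and 5.27 in unirradiated Bub1KO, and 17.8, 32.7 and 24.7 in irradiated VC against 4.14, 6.45 and 7.56 in unirradiated VC. Both genotypes thus reached the same range, with log2 rises of 1.78 (limma adjusted p = 4.8e-04) in Bub1KO and 1.88 (3.0e-04) in VC. Col1a2 rose by 0.91 (SE 0.16, limma adjusted p = 3.3e-04) in Bub1KO and by 1.70 (SE 0.16, 1.5e-06) in VC, with 69.1, 118 and 91.6 in unirradiated Bub1KO and 80.4, 83.8 and 76.9 in unirradiated VC. Col20a1, a fibril-associated chain, averaged 154 ± 21.0 in irradiated Bub1KO and 123 ± 22.7 in irradiated VC, against 54.4 ± 17.7 in unirradiated Bub1KO and 58.3 ± 1.33 in unirradiated VC (SD, n = 3 each). It overlaps another annotated gene on the same strand, whose values were 134 to 251, by 79 bases of exon.

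The type IV and V chains rose less than Col14a1 and Col10a1 in log2 terms. Col5a3 averaged 1068 ± 72.3 in irradiated Bub1KO against 683 ± 171 in unirradiated Bub1KO, and 1196 ± 214 in irradiated VC against 607 ± 32.0 in unirradiated VC (SD, n = 3 each), log2 rises of 0.67 and 0.96. Col4a1 rose by 0.75 in Bub1KO and 0.76 in VC, Col4a2 by 0.58 and 0.89, Col4a5 by 0.66 and 0.84 and Col4a4 by 1.42 and 1.44 (limma adjusted p from 8.7e-05 to 0.029). Of these the rise of Col4a2 in Bub1KO was the least secure, and was lost in 7 alternatives, among them those without unirradiated Bub1KO replicate 1, irradiated Bub1KO replicate 1 or irradiated Bub1KO replicate 2 (adjusted p up to 0.166). The size of the Col4a1 rise in Bub1KO depends on unirradiated Bub1KO replicate 1, which had 300 normalized reads against 622 and 560 in its partners. Its call was kept without that library. Col15a1, near basement membranes, changed least of those called, by 0.39 in Bub1KO and 0.38 in VC, and lost both calls once GC trends were removed (adjusted p up to 0.118 and 0.215).

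Col9a1 went the other way from the rest. It had 91.8, 92.02 and 102 in irradiated Bub1KO against 116, 139 and 146 in unirradiated Bub1KO, and 97.4, 107 and 92.2 in irradiated VC against 211, 191 and 192 in unirradiated VC. No library of an irradiated group reached its unirradiated group, and the log2 differences were -0.48 (SE 0.12, limma adjusted p = 0.00545) in Bub1KO and -0.99 (SE 0.12, 1.8e-05) in VC. Both calls held in every alternative. Its partners in type IX collagen did not fall with it. Col9a3 rose by 1.14 in Bub1KO (limma adjusted p = 0.0032) and 0.94 in VC (0.0099), and Col9a2 had differences of 0.45 in Bub1KO (0.17) and 0.80 in VC (0.019). Both calls in VC were lost with GC trends removed and without irradiated VC replicate 2 (adjusted p up to 0.162 for Col9a3 and 0.258 for Col9a2), and that of Col9a2 also without unirradiated VC replicate 2, while the call for Col9a3 in Bub1KO held in every alternative. Per kb, Col9a1 exceeded Col9a3 by a ratio of 1.99 to 2.56 in irradiated Bub1KO and 1.79 to 2.97 in irradiated VC, and of 5.78 to 9.88 in unirradiated Bub1KO and 7.50 to 10.5 in unirradiated VC. Col9a1 over Col9a2 was 0.906 to 0.971 in irradiated Bub1KO and 0.632 to 0.740 in irradiated VC. That ratio was 1.31 to 2.68 in unirradiated Bub1KO and 2.26 to 2.58 in unirradiated VC. With the longest transcript as length, it was 1.13 to 1.21 in irradiated Bub1KO and 0.789 to 0.925 in irradiated VC.

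The chains past the threshold in VC but not in Bub1KO were Col9a2, Col27a1, Col12a1, Col6a1 and Col11a1. Col27a1 had 30.5, 32.9 and 20.01 in unirradiated Bub1KO and 34.8, 36.1 and 32.8 in unirradiated VC, and its log2 rise was 0.50 in Bub1KO (SE 0.22, limma adjusted p = 0.072) and 1.22 in VC (SE 0.22, 3.5e-04). Col12a1, a chain that links fibrils, had a difference of 1.24 in Bub1KO (limma adjusted p = 0.070) and 1.71 in VC (0.016). Col11a1, a minor fibrillar chain, had 3.10, 6.07 and 4.202 in irradiated Bub1KO and 13.5, 14.5 and 15.02 in irradiated VC, against 0 to 4.21 in unirradiated Bub1KO and 0.829 to 3.87 in unirradiated VC. Col2a1, the cartilage chain, missed the threshold in both genotypes, with 10.1 to 20.6 in irradiated Bub1KO against 6.32 to 10.2 in unirradiated Bub1KO, and 21.5 to 25.4 in irradiated VC against 10.1 to 18.1 in unirradiated VC (limma adjusted p = 0.093 and 0.051). Its VC groups did not overlap, and its rise in VC passed in the fit on the 6 VC libraries, by edgeR and with a pseudocount of 5. By DESeq2 and with GC trends removed that rise did not pass. In VC, 16 chains rose without irradiated VC replicate 2, the lowest count of the omissions: Col6a1, Col11a2, Col9a3, Col9a2 and Col12a1 then missed the threshold.

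**Figure D5:**
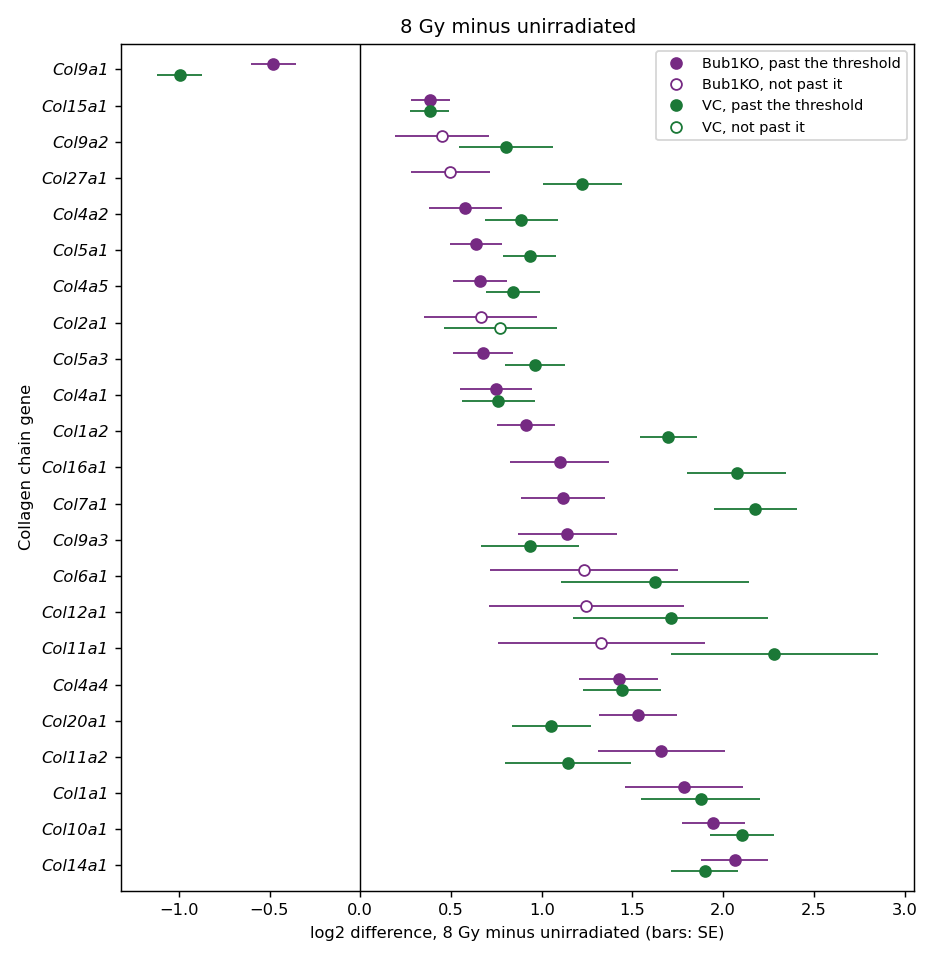
Log2 difference, 8 Gy minus unirradiated, of the 23 collagen chain genes in Bub1KO (purple) and in VC (green), with bars for the SE of the limma fit. Filled points are past the threshold, 17 in Bub1KO and 22 in VC, and Col9a1 at the top is the chain left of 0.

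Whether the rise after radiation differed between genotypes was tested by the interaction, the Bub1KO minus VC difference in irradiated cells minus that in unirradiated cells. None of the 23 chains was past the threshold by limma or by edgeR, where 0.550% of all genes were by limma (0.136% higher, 0.414% lower). An unadjusted limma p under 0.05 was found for 5 chains (Col1a2, Col7a1, Col9a1, Col16a1 and Col27a1), and DESeq2 called Col1a2. The share of all genes at that unadjusted level is not given here, so the count of 5 cannot be judged against it. Among these 5 the values farthest from 0 were Col7a1 (-1.06, SE 0.33, limma adjusted p = 0.19), Col16a1 (-0.97, SE 0.39, 0.32) and Col1a2 (-0.79, SE 0.23, 0.16). Col11a1, with few reads, had -0.95 (SE 0.81, 0.70). Col7a1 was at 11.2, 13.2 and 12.6 in unirradiated Bub1KO and 12.4, 12.9 and 10.1 in unirradiated VC, where the groups overlapped, against the 26.8, 36.4 and 22.1 in irradiated Bub1KO and 54.8, 49.9 and 66.5 in irradiated VC. Without unirradiated Bub1KO replicate 1, 4 chains had a lower interaction past the threshold (Col16a1, Col1a2, Col5a1 and Col5a3), as did 1447 of all genes instead of 81 in either direction; with GC trends removed as well they were Col16a1 and Col1a2. Thus it is not shown here that the chains past the threshold in 1 genotype responded differently from the other genotype.

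Of 17 tested genes of folding and hydroxylation, 3 were higher and 1 lower in irradiated Bub1KO (7.37% and 6.93% of all genes tested), and 1 was higher (P4ha1) and 2 lower (P3h2 and the low-level Colgalt2) in unirradiated Bub1KO (6.64% and 5.38%). P4ha1, a prolyl 4-hydroxylase subunit needed for a stable triple helix, averaged 3328 ± 209 in irradiated Bub1KO and 2018 ± 84.6 in irradiated VC (SD, n = 3 each), a log2 difference of 0.72 (limma adjusted p = 2.3e-04), and 1864 ± 256 in unirradiated Bub1KO and 1367 ± 17.9 in unirradiated VC (0.44, adjusted p = 0.0064). P4ha2, its paralog, and Plod2, a lysyl hydroxylase, were higher in irradiated Bub1KO by 0.65 (limma adjusted p = 4.1e-04) and 0.49 (0.0049). Without irradiation their differences were 0.26 (0.073) and 0.29 (0.073). P3h2, a prolyl 3-hydroxylase of basement membrane collagen, was lower in Bub1KO by -0.61 after irradiation (limma adjusted p = 0.0021) and -0.77 without (3.0e-04). The call for Colgalt2 was lost in 12 alternatives and that for P4ha1 without irradiation in the fit on the 6 unirradiated libraries (adjusted p = 0.064). Serpinh1, the collagen chaperone, averaged 13070 ± 1013 in irradiated Bub1KO and 14990 ± 982 in irradiated VC, and 15388 ± 2278 in unirradiated Bub1KO and 13435 ± 849 in unirradiated VC (limma adjusted p = 0.21 and 0.28). P4hb, the beta subunit of prolyl 4-hydroxylase, had differences of 0.06 after irradiation (0.595) and 0.22 without (0.067).

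Of 12 tested genes of procollagen export and processing, Adamts14, a procollagen N-proteinase, was lower in irradiated Bub1KO (-0.87, limma adjusted p = 0.019), with means of 167 ± 14.9 in irradiated Bub1KO and 307 ± 35.4 in irradiated VC (SD, n = 3 each). The rest of the 12 missed the threshold there, where 6.93% of all genes tested were lower and 7.37% higher. The Adamts14 call was lost without irradiated Bub1KO replicate 2 or 3 or irradiated VC replicate 1 or 2 (adjusted p up to 0.089), and 0 to 6 of the list passed in the alternatives. Without irradiation none passed by limma, 0 had an unadjusted p under 0.05, and 0 to 2 passed in the alternatives, edgeR and DESeq2 among them. Of all genes tested, 12% passed by limma without irradiation. Bmp1, the C-proteinase, had differences of -0.40 (limma adjusted p = 0.17) and -0.35 (0.26). Of 4 tested crosslinking enzymes, Loxl2 was higher in Bub1KO in both conditions (0.55 and 0.57, limma adjusted p = 0.039 each), Tgm2 was higher (0.62, 0.049) and Loxl4 lower (-1.16, 0.033) in irradiated Bub1KO, and Loxl3 was lower in unirradiated Bub1KO (-0.36, 0.0099). That made 2 higher and 1 lower of the 4 in irradiated Bub1KO, and 1 higher and 1 lower in unirradiated Bub1KO. Of all genes tested, 7.37% were higher and 6.93% lower in irradiated Bub1KO, and 6.64% and 5.38% in unirradiated Bub1KO. The Loxl2 calls were lost in 9 alternatives in irradiated and 14 in unirradiated cells. In irradiated cells the Tgm2 call was lost in 11, among them TMM scaling and the omission of any irradiated library (adjusted p up to 0.158), and the Loxl4 call in 5, among them the omission of irradiated Bub1KO replicate 2 or of any irradiated VC library (up to 0.126). The Loxl3 call was lost in the fit on the 6 unirradiated libraries (0.095). Lox and Pxdn were not detected beyond a mean of 0.344.

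Laminin, nidogen and perlecan share the basement membrane with type IV collagen. Lamb1 was lower in Bub1KO in both conditions, by -0.46 after irradiation (limma adjusted p = 0.00275) and -0.51 without (0.0012), with means of 881 ± 67.2 in irradiated Bub1KO and 1209 ± 35.0 in irradiated VC, and 393 ± 23.4 in unirradiated Bub1KO and 559 ± 27.9 in unirradiated VC (SD, n = 3 each). Nid2 was lower in irradiated Bub1KO (-0.66, limma adjusted p = 0.023), a call lost without irradiated Bub1KO replicate 1 or irradiated VC replicate 2 or 3 (up to 0.103). Lamc1 (-0.27, 0.082), Nid1 (-0.16, 0.43) and Hspg2 (-0.60, 0.32) missed the threshold there, and without irradiation they had -0.27 (0.090), 0.27 (0.19) and -0.03 (0.97), the last being 0.63 without unirradiated Bub1KO replicate 1. In all, 2 of 11 tested genes were lower in irradiated and 1 in unirradiated Bub1KO, with none higher. Of all genes tested, 6.93% were lower and 7.37% higher in irradiated Bub1KO, and 5.38% and 6.64% in unirradiated Bub1KO. Over the alternatives 1 to 7 of the 11 were lower in irradiated Bub1KO. In unirradiated Bub1KO 1 was lower and 0 to 2 were higher. Of 7 tested genes that bind fibrils, Fn1 (-1.60 irradiated, limma adjusted p = 3.3e-06; -1.07 unirradiated, 6.9e-05), Thbs1 (-0.81, 0.0025; -0.84, 0.0018) and Sparc (-0.43, 0.0061; -0.54, 0.0012) were lower in Bub1KO in both conditions, and Prelp was higher (0.75, 0.0013; 0.61, 0.0043, the second lost in the fit on the 6 unirradiated libraries). Fn1, fibronectin, averaged 908 ± 136 in irradiated Bub1KO and 2754 ± 330 in irradiated VC, and 522 ± 63.4 in unirradiated Bub1KO and 1092 ± 54.1 in unirradiated VC. That made 1 higher and 3 lower of the 7 in each condition, where the shares of all genes tested were those given above. Over the alternatives 4 to 6 passed in irradiated and 3 to 4 in unirradiated cells.

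Among 11 tested collagen receptors, Mrc2, which takes up collagen for breakdown, was higher (0.81 irradiated, limma adjusted p = 0.047; 1.08 unirradiated, 0.014) and Cspg4 lower (-1.01, 0.0019; -0.75, 0.011) in Bub1KO in both conditions. Without irradiation Ddr2, a receptor kinase for fibrillar collagen, was also higher (0.46, limma adjusted p = 0.0088), and Itga1 (-0.59, 0.0023), Adgrg1 (-0.44, 0.010) and Antxr2 were lower, giving 2 higher and 4 lower of the 11. In irradiated Bub1KO 1 was higher and 1 lower. Of all genes tested, 7.37% were higher and 6.93% lower in irradiated Bub1KO, and 6.64% and 5.38% in unirradiated Bub1KO. Over the alternatives 1 to 6 receptors passed in irradiated and 1 to 7 in unirradiated cells. The Mrc2 call in irradiated cells was lost in 11 alternatives, among them the omission of any irradiated library (adjusted p up to 0.194). In unirradiated cells it was lost without unirradiated Bub1KO replicate 3, without unirradiated VC replicate 1 and in the fit on the 6 libraries (up to 0.085), and that fit also ended the calls for Ddr2, Adgrg1, Cspg4 and Antxr2. The Cspg4 call was lost too without unirradiated VC replicate 1, and the Antxr2 call without unirradiated Bub1KO replicate 3 or unirradiated VC replicate 2. Ddr1 (-0.63 irradiated, limma adjusted p = 0.061; -0.20 unirradiated, 0.61), Itgb1 (-0.14, 0.29; -0.03, 0.88) and Itga2 (0.15, 0.70; -0.65, 0.088) missed the threshold, as did Ddr2 (-0.11, 0.50) and Itga1 (-0.18, 0.26) in irradiated cells. The 8 tested genes of collagen breakdown include the inhibitors Timp2 and Timp3, so their counts do not give a direction of breakdown. Of the 8, 3 were higher and 1 lower in irradiated Bub1KO, where 7.37% and 6.93% of all genes tested were, and 3 higher and 2 lower in unirradiated Bub1KO, where 6.64% and 5.38% were. Over the alternatives 1 to 5 were higher in irradiated and 0 to 3 in unirradiated Bub1KO. Timp3, an inhibitor of metalloproteases, was higher in both conditions (0.47, limma adjusted p = 0.0018; 0.43, 0.0025) and Mmp15 lower in both (-0.85, 7.1e-04; -1.03, 1.2e-04). Mmp14, a membrane collagenase, was higher in irradiated Bub1KO (0.27, limma adjusted p = 0.017; without irradiation -0.11, 0.32), and Mmp2, a gelatinase, in unirradiated Bub1KO (0.60, 0.026; irradiated 0.35, 0.16). Timp2 was lower in unirradiated Bub1KO (-0.40, 0.0019). The Mmp14 call was lost without irradiated Bub1KO replicate 1 or 2 or irradiated VC replicate 2 or 3 (adjusted p up to 0.084). The Mmp2 call was lost without unirradiated Bub1KO replicate 2 or 3 or unirradiated VC replicate 1 or 2, and, like the unirradiated Timp3 call, in the fit on the 6 libraries (up to 0.140 and 0.053).

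Of 19 tested regulators of collagen genes, 4 were lower in irradiated Bub1KO, and 5 were lower and 1 (Sox9, a cartilage factor) higher in unirradiated Bub1KO. These counts were 2 to 8 in irradiated and 3 to 11 in unirradiated cells over the alternatives, both directions together, where 14.3% and 12% of all genes tested were past the threshold. Ccn2, a TGF-beta and YAP target that promotes matrix production, was lower by -1.72 after irradiation (limma adjusted p = 4.7e-06) and -1.46 without (1.2e-05), with means of 50.5 ± 1.75 in irradiated Bub1KO and 169 ± 15.1 in irradiated VC, and 59.3 ± 8.22 in unirradiated Bub1KO and 164 ± 13.7 in unirradiated VC (SD, n = 3 each). Smad7, a feedback inhibitor of TGF-beta signalling, was lower by -0.77 (limma adjusted p = 6.3e-04) and -0.74 (6.4e-04), and the ligand Tgfb2 by -0.44 (0.014) and -0.56 (0.0029). The ligand Tgfb1 (0.41, limma adjusted p = 0.255; 0.71, 0.065) and Creb3l1, a transcription factor for type I collagen in bone (0.61, 0.18; 0.60, 0.21), missed the threshold. Tgfbr1, a receptor, was lower by -0.41 in both conditions (limma adjusted p = 0.041 irradiated, 0.046 unirradiated), and Runx2, a factor of bone, by -1.10 without irradiation (0.0068). The Tgfbr1 calls were lost in 7 alternatives in irradiated and 10 in unirradiated cells, those for Sox9 and Runx2 in the fit on the 6 unirradiated libraries, and that for Tgfb2 in irradiated cells without irradiated Bub1KO replicate 2 or irradiated VC replicate 2 or 3 (adjusted p up to 0.073). The median log2 difference over each list, irradiated and then unirradiated, was -0.018 and 0.031 for folding, -0.12 and 0.010 for export, 0.21 and 0.040 for crosslinking, -0.46 and -0.14 for basement membrane partners, -0.43 and -0.18 for fibril partners, -0.14 and -0.24 for receptors, 0.22 and 0.075 for breakdown and -0.15 and -0.091 for regulators, where all genes tested had -0.0055 and -0.0084. No gene of these lists had an interaction past the threshold by limma, with 4, 1, 0, 2, 1, 3, 1 and 3 at an unadjusted p under 0.05 in the same order, and at most 5 in a list passed in any alternative. For these unadjusted counts too, the share of all genes is not given.

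After irradiation in Bub1KO, 6 of the 7 fibril partners, 6 of the 8 breakdown genes (the inhibitors Timp2 and Timp3 among them), 5 of the 11 basement membrane partners and 2 of the 4 crosslinking genes rose, with 1, 0, 1 and 0 fallen. Of all genes tested, 25.4% rose and 23.9% fell in Bub1KO, and 27.6% rose and 25.8% fell in VC. In VC the counts that rose were 6, 6, 6 and 3, with 1, 1, 1 and 0 fallen. Folding genes rose in 9 and fell in 0 of 17 in Bub1KO, and rose in 8 and fell in 1 in VC. Serpinh1 had differences of -0.23 in Bub1KO and 0.16 in VC (limma adjusted p = 0.084 and 0.21). Export genes rose in 3 and fell in 3 of 12 in Bub1KO, and rose in 4 and fell in 4 in VC, shares near those of all genes. Receptors rose in 5 and fell in 1 of 11 in Bub1KO, and rose in 4 and fell in 1 in VC. Regulators rose in 9 and fell in 6 of 19 in Bub1KO, and rose in 9 and fell in 5 in VC. Sparc, a collagen-binding matricellular protein, averaged 39554 ± 1118 in irradiated Bub1KO against 12872 ± 1186 in unirradiated Bub1KO, and 53225 ± 2876 in irradiated VC against 18666 ± 1882 in unirradiated VC (SD, n = 3 each), log2 rises of 1.62 and 1.52.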

How the data were processed

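RNA was extracted with TRIzol and made into stranded total RNA libraries after ribosomal RNA removal, per the labels' protocols. The submitters' processing notes name STAR, HTSeq, SAMtools, cutadapt and Trim Galore and the build GRCm38.p6 (mm10). The sources used here give no versions, annotation or strand setting. The authors deposited 2 tables of 55421 genes with a signal per library: read counts divided by 1 size factor per library, per the file headers and values. Dividing by the smallest step returned whole reads for 100% of values (tolerance 0.01 of a read). The deposited tables also hold log2 fold changes by the authors, with VC over Bub1KO, their standard errors, a test score and p-values. No value column lacked a sample.

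The main test was limma-trend (limma 3.58.1, R 4.3.3) on log2(value + 1), with all 12 libraries in 1 fit of 4 group means, on 14721 genes with at least 10 normalized reads in at least 3 libraries, with Benjamini-Hochberg adjustment and a threshold of 0.05. A fold change on this scale understates low genes. Alternatives used edgeR 4.0.16 and DESeq2 1.42.0 on recovered reads. The script was tested on simulated data. Levels per kb used merged exons of GENCODE M21, which matched 55240 identifiers. The collagen genes, the 8 lists (folding and hydroxylation, export and processing, crosslinking, basement membrane partners, fibril partners, receptors, breakdown, regulators) and the markers were chosen with earlier results of these data known. All chains at the minimum are named, with all 12 values for those past the threshold between genotypes. Of each list, fixed readouts are named, with the 3 smallest adjusted p per genotype comparison. Antxr2, Sox9, Tgfbr1, Runx2 and the overlapping genes were named after their values were seen, and so were the chains given with their values although they missed that threshold.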

Additional observations from a re-analysis of the deposited data

How the results depend on the processing

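Each comparison of the 23 chains was repeated under 22 alternatives (21 for the interaction). Of 115 pairs of chain and comparison, 49 were past the threshold, 35 of them in every alternative, and none of the 49 changed sign. Of the 66 others, 23 passed in some alternative. Without irradiation the number of chains past the threshold between genotypes (4) was 1 in the fit on 6 libraries and 2 to 8 when 1 library was left out; after irradiation it (6) was 12 in the fit on 6 libraries, 10 with GC trends removed and unirradiated Bub1KO replicate 1 left out (chosen after seeing the data), and 4 to 11 when 1 library was left out. For the interaction (0) it was 1 by DESeq2, 1 with GC trends removed, 1 with the replicate block and GC trends removed, 2 with GC trends removed and that library left out, and 0 to 4 when 1 library was left out. The cause was not tested. Where 1 library was left out, the group kept 2.

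Over all genes, the counts without irradiation (1769) were 591 in the fit on 6 libraries, 2821 with GC trends removed and 1088 to 3624 with 1 library left out; after irradiation (2105) they were 4512, 3499 and 899 to 4131, the second with 1489 higher and 2010 lower; for the interaction (81) they were 269 by DESeq2, 357 with GC trends removed and 33 to 1447 with 1 library left out. Same-numbered libraries had correlations of -0.193 to 0.196 in their deviations from the group means, and differently numbered ones -0.2425 to 0.209. With 3 libraries per group this cannot decide whether same-numbered libraries shared a batch. The labels do not say what the numbers mean. With the replicate block, 6, 4, 18, 22 and 0 chains were past the threshold for the genotypes after and without irradiation, radiation in Bub1KO and in VC, and the interaction, against 6, 4, 17, 22 and 0 without the block.

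Values that changed sign and passed the threshold were Col4a1 between genotypes without irradiation (0.28) and Hspg2 likewise (0.63), both without unirradiated Bub1KO replicate 1 (ranges with 1 library left out -0.24 to 0.28 and -0.37 to 0.63), Itgb1 after radiation in Bub1KO with GC trends removed (0.14, and 0.15 with that library left out too), and Smad7 after radiation in VC with both (-0.28). With the longest transcript as length, the type IV share of unirradiated Bub1KO was 27.5%, Col1a1 over Col1a2 was 0.128 in irradiated Bub1KO, 0.0866 in irradiated VC, 0.0627 in unirradiated Bub1KO and 0.0682 in unirradiated VC, and Col4a1 over Col4a2 in irradiated VC was 4.52. Depth limits chains with under 10 normalized reads, whose values rest on single reads.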
